A study of Mus musculus with 16 samples.

Results

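Brush border peptidases and amino acid transporters were represented by 9 genes, which were taken by symbol from the 46078 genes of the count table and were all measured in each of the 16 libraries. They comprised 5 peptidases, Dpp4, Anpep, Enpep, Mep1a and Mep1b, and 4 genes for transporter chains, Slc15a1, Slc6a19, Slc7a9 and Slc3a1. RNA came from the mucosa of C57Bl/6 mice that the labels give as 8 weeks old and the study's methods as older, and the study's methods place the tissue in the ileum. The mice were Slfn3KO, in which the Schlafen gene Slfn3 is knocked out with no tissue-specific driver named, or WT, and each of the 4 groups of labelled sex and genotype held 4 mice with 1 library per mouse. The comparison addressed how loss of Slfn3 bears on genes of the differentiated intestinal epithelium.

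The last steps of protein digestion take place at the brush border, the carpet of microvilli on the villus enterocyte. Peptidases anchored there shorten peptides left by the pancreatic enzymes, and neighbouring transporters carry the products into the cell as free amino acids or as di- and tripeptides. Anpep (aminopeptidase N) removes neutral residues from the N-terminus, Enpep (aminopeptidase A) removes acidic residues, and Dpp4 removes dipeptides that end in proline or alanine. Mep1a and Mep1b encode the alpha and beta chains of meprin, a metalloprotease that cuts within peptides. Slc15a1 (PEPT1) takes up di- and tripeptides together with protons, and Slc6a19 takes up neutral amino acids with sodium. Slc7a9 is the light chain and Slc3a1 the heavy chain of the exchanger for cystine and basic amino acids.

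Promoter windows from RefSeq (GRCm38.p6, 250 bases before to 50 bases after the start) were matched for 8 of the 9 genes. Those of the partner chains Slc3a1 and Slc7a9 are shown because both genes moved together over the libraries, and that of Mep1a because its pattern stood apart. The windows lie at chr17:85028097-85028396 on the plus strand, chr7:35448842-35449141 on the plus strand, which is the first of 2 entries for this gene, and chr17:43502724-43503023 on the minus strand. Each is written 5′ to 3′ along the gene, with capitals for matches on either strand to the GATA motif AGATAA, the CDX motif TTTATG, the HNF4 motif CAAAGTCCA, the HNF1 half-site GTTAAT or the TATA motif TATAAA.
Slc3a1: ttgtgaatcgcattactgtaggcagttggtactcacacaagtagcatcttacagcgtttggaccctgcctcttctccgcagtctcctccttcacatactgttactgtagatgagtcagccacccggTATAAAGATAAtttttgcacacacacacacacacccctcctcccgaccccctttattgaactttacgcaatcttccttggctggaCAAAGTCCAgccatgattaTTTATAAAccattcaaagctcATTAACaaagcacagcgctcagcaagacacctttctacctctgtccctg
Slc7a9: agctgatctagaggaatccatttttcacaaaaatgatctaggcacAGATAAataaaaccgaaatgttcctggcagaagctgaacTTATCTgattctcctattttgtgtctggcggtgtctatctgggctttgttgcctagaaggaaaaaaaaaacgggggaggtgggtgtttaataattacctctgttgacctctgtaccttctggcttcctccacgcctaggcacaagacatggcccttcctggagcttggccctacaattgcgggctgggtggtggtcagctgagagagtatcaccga
Mep1a: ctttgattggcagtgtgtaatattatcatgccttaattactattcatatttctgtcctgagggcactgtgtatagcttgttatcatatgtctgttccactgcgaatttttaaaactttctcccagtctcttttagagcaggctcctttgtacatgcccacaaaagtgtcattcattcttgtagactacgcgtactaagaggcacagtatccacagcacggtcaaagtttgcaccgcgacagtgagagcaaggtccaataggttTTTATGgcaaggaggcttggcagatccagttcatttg

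The Slc3a1 window held 6 matches, with the HNF4 motif at base -39 from the start, an HNF1 half-site at base 2 on the other strand, a GATA motif at base -119 that overlaps a TATA motif at base -124, and a pair of overlapping TATA matches at -20 and -18. The Slc7a9 window held GATA motifs at -205 and, on the other strand, at -166, and the Mep1a window held a CDX motif at base 14. Of all 32851 windows of this length, 0.475% held the HNF4 motif, 7.1% the HNF1 half-site, 11.2% the GATA motif, 11.9% the CDX motif and 13.6% the TATA motif. Among the 8 genes these were found in 1, 1, 3, 1 and 3, respectively. The windows of Anpep, Slc6a19 and Slc15a1 held none of these motifs, nor did the second entry of Slc7a9. The Slc6a19 window, at chr13:73692587-73692886, lies within the counted gene, whose 5′ end is at base 73704865. Its lack of matches thus does not describe that end. The window of Anpep was the richest in G and C among the 8 genes, at 72.3% against a median of 52.7% over all windows.

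Between 20823279 and 30813117 reads per library were counted on genes, and levels are given as CPM, the usual counts scaled to a common library size, with TMM factors. Slfn3 had 0 to 2 counts in the 8 Slfn3KO libraries and 0 to 19 in the 8 WT libraries, with no count in 1 of the latter, so it was too low to check each label. Replicates 3 and 4 of both WT groups carried 5 sex transcripts contrary to their labelled sex. Fold changes of the 9 genes and correlations of partner pairs are therefore also given without these 4 libraries. Fold changes of the other lists and of the markers are given with all libraries only. The ileal markers Fabp6, Slc10a2, Slc51a, Slc51b, Cubn and Fgf15 summed to between 3952 and 19372 CPM. Of the 3 colon markers, Car1 and Aqp8 reached at most 0.473 CPM and Slc26a3 was at 140 to 242.3 CPM. All 7 pancreas markers together reached at most 0.17 CPM. The 9 genes held between 1.59% and 2.98% of all counts of a library, and Anpep alone between 0.861% and 1.74%.

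Per gene length (RPKM, CPM divided by the exon length in kilobases), Anpep had the highest level by far. Its median over the 16 libraries was 3453 RPKM (range 1891 to 5019), which ranked 11 among 46022 genes, and its lowest library lay above the highest of any other of the 9. Mep1b followed with a median of 985 RPKM (range 624.5 to 1374) and lay above Enpep in 16 of 16 libraries. Enpep, at 517.5 RPKM, and Mep1a, at 490.2 RPKM, had overlapping ranges, with Enpep higher in 12 of 16 libraries. Below them, Mep1a exceeded Slc6a19 in 16 of 16 libraries. The transporter chains and Dpp4 lay close together, with medians of 274 RPKM for Slc6a19, 255 for Slc15a1, 238.5 for Slc7a9, 214 for Slc3a1 and 197 for Dpp4. Their ranges overlapped. Slc6a19 exceeded Slc15a1 in 9, Slc15a1 exceeded Slc7a9 in 8, Slc7a9 exceeded Slc3a1 in 13, and Slc3a1 exceeded Dpp4 in 8 of 16 libraries.

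**Figure D1:**
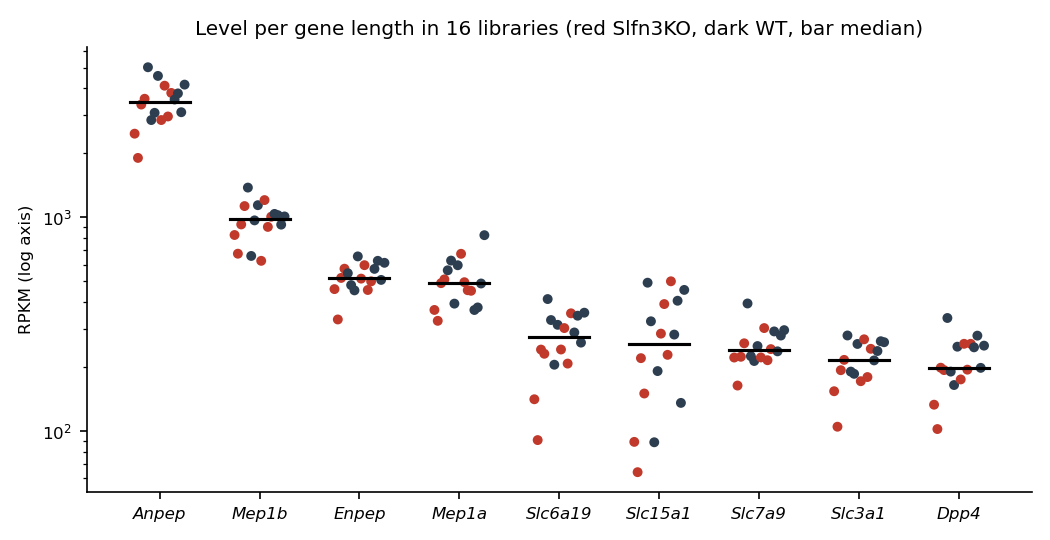
RPKM of the 9 genes on a log axis, with 1 point per library (red Slfn3KO, dark WT) and a bar at the median of the 16 libraries. Anpep, with a lowest value of 1891, stands clear of the other genes, and Slc15a1 spreads most widely, from 64.2 to 501.

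The genes differed in how much they varied between mice. Enpep was the steadiest, with a standard deviation of 0.24 in log2 CPM over the 16 libraries, below the median of 0.32 over all 14822 genes tested. Slc15a1 was the most variable, with a standard deviation of 0.94 and a 7.8-fold span between its extremes, more than 92.2% of the genes tested. Slc6a19 followed with 0.56 and a 4.56-fold span. In 8 of the 9 genes the lowest library was female Slfn3KO 2, the exception being Mep1b, which was lowest in male Slfn3KO 1. In 6 of the 9 the highest library was female WT 1. Female WT 1 also had the lowest TMM factor (0.811) and female Slfn3KO 2 the highest (1.18). As a share of counts without these factors, the 9 genes together were likewise lowest in female Slfn3KO 2 (1.59%). They were highest in female WT 4 (2.98%), against 2.80% in female WT 1.

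Across all 16 mice with labelled sex as a covariate, each of the 9 genes had a log2 fold change below 0 (Slfn3KO over WT), and none passed an adjusted p under 0.05 with a change of at least 1.5-fold. The rule called 0 of 14822 genes (0%) by edgeR's quasi-likelihood test, while 1770 genes had an unadjusted p under 0.05 and DESeq2 called 54 genes, none of the 9. A fold change below 0 was found for 50.7% of all genes tested, and an unadjusted p under 0.05 on the lower side for 7.1%, which among the 9 was reached by Slc6a19. The median of the 9 was -0.27, against -0.0037 over all genes tested. The 9 genes tended to move together over the libraries, so their shared sign is not 9 separate observations. The intervals ran from a log2 fold change of -0.97 at the low end for Slc6a19 and -1.29 for Slc15a1 up to 0.35 for Slc15a1, so that decreases to about 0.41 of the WT level for Slc15a1, and to 0.51 for Slc6a19, lay within them.

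Slc6a19, the neutral amino acid transporter, had the largest log2 fold change of the 9 over all mice, whereas that of Slc15a1 was larger in females and without the 4 WT libraries. Its level was 704.5, 454, 1203 and 1149 CPM in female Slfn3KO and 2071, 1652, 1022 and 1570 CPM in female WT. In males it was 1204, 1516, 1034 and 1777 CPM in Slfn3KO and 1446, 1732, 1296 and 1789 CPM in WT. The genotypes overlapped in both sexes, with 2 of 4 Slfn3KO libraries below every WT library in females and likewise 2 of 4 in males, and 7 of all 8 Slfn3KO libraries below the WT median. The log2 fold change was -0.51 (SE 0.22) over all mice, with an edgeR adjusted p of 0.370 and an unadjusted p of 0.0313. It was -0.67 without the 4 WT libraries, and between -0.60 and -0.38 with each mouse left out in turn.

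Slc15a1, the peptide transporter, varied most within groups. It was measured at 278, 200.4, 684 and 468 CPM in female Slfn3KO and at 1541, 1017, 276.5 and 595 CPM in female WT. The male values were 891, 1224, 709 and 1565 CPM in Slfn3KO and 882, 1269, 422.5 and 1426 CPM in WT. The 4 female Slfn3KO libraries lay within or below the range of female WT, and the male genotypes overlapped. The log2 fold change over all mice was -0.47 (SE 0.39, edgeR adjusted p = 0.646) and -0.89 without the 4 WT libraries, of which female WT 3 and male WT 3 were the lowest of their groups. With each mouse left out in turn it lay between -0.64 and -0.22, the latter without female WT 1, and it was -0.30 without female Slfn3KO 2.

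Slc3a1 and Slc7a9, the heavy and light chain of the cystine exchanger, had log2 fold changes of -0.31 (SE 0.15, edgeR adjusted p = 0.431) and -0.25 (SE 0.14, adjusted p = 0.498). Slc3a1 was at 354, 241.5, 444 and 496 CPM in female Slfn3KO and at 645, 437, 427 and 589 CPM in female WT. In males it was at 394, 619, 412 and 559 CPM in Slfn3KO and at 493.2, 545.5, 606 and 599.8 CPM in WT. Of the 8 Slfn3KO libraries, 4 lay below every WT library, the most for any of the 9 genes, while the highest male Slfn3KO library lay above every male WT library. Slc7a9 ranged from 432 to 803 CPM in Slfn3KO (median 587) and from 563 to 1046 CPM in WT (median 701), so the genotypes overlapped. Without the 4 WT libraries the log2 fold changes were -0.29 for Slc3a1 and -0.32 for Slc7a9.

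Among the peptidases, Dpp4 had the largest difference, with a log2 fold change of -0.37 (SE 0.18, edgeR adjusted p = 0.435) and -0.51 without the 4 WT libraries. Dpp4 was at 839, 645, 1248 and 1217 CPM in female Slfn3KO and at 2132, 1197, 1036 and 1566 CPM in female WT. In males it was at 1101, 1615, 1223 and 1615 CPM in Slfn3KO and at 1555, 1764, 1247 and 1583 CPM in WT. In each sex 2 of 4 Slfn3KO libraries lay below every WT library of that sex, and the genotypes overlapped. Anpep had a log2 fold change of -0.27 (SE 0.17, adjusted p = 0.555), with 7335 to 15962 CPM in Slfn3KO (median 12245) and 11027 to 19469 CPM in WT (median 14222). Enpep, at 1563 to 2804 CPM in Slfn3KO and 2139 to 3082 CPM in WT, had a log2 fold change of -0.17 (SE 0.12, adjusted p = 0.590). Without the 4 WT libraries these were -0.29 and -0.17.

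Over all mice the meprin chains had small log2 fold changes, as did Enpep. For Mep1a the value was -0.36 in females and 0.02 in males, or -0.49 and 0.49 without the 4 WT libraries. The sexes were not shown to differ. Mep1a was at 1270, 1130, 1695 and 1766 CPM in female Slfn3KO, 1947, 2161, 1360 and 2056 CPM in female WT, 2325, 1713, 1571 and 1562 CPM in male Slfn3KO, and 1270, 1305, 1689 and 2841 CPM in male WT. Its highest libraries were male WT 4, male Slfn3KO 1 and female WT 2, from 3 of the 4 groups. Its log2 fold change was -0.17 (SE 0.18, edgeR adjusted p = 0.714) and -0.03 without the 4 WT libraries. Mep1b ranged from 1428 to 2746 CPM in Slfn3KO and from 1505 to 3142 CPM in WT, with a log2 fold change of -0.16 (SE 0.16, adjusted p = 0.701) and -0.17 without the 4 WT libraries.

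**Figure D2:**
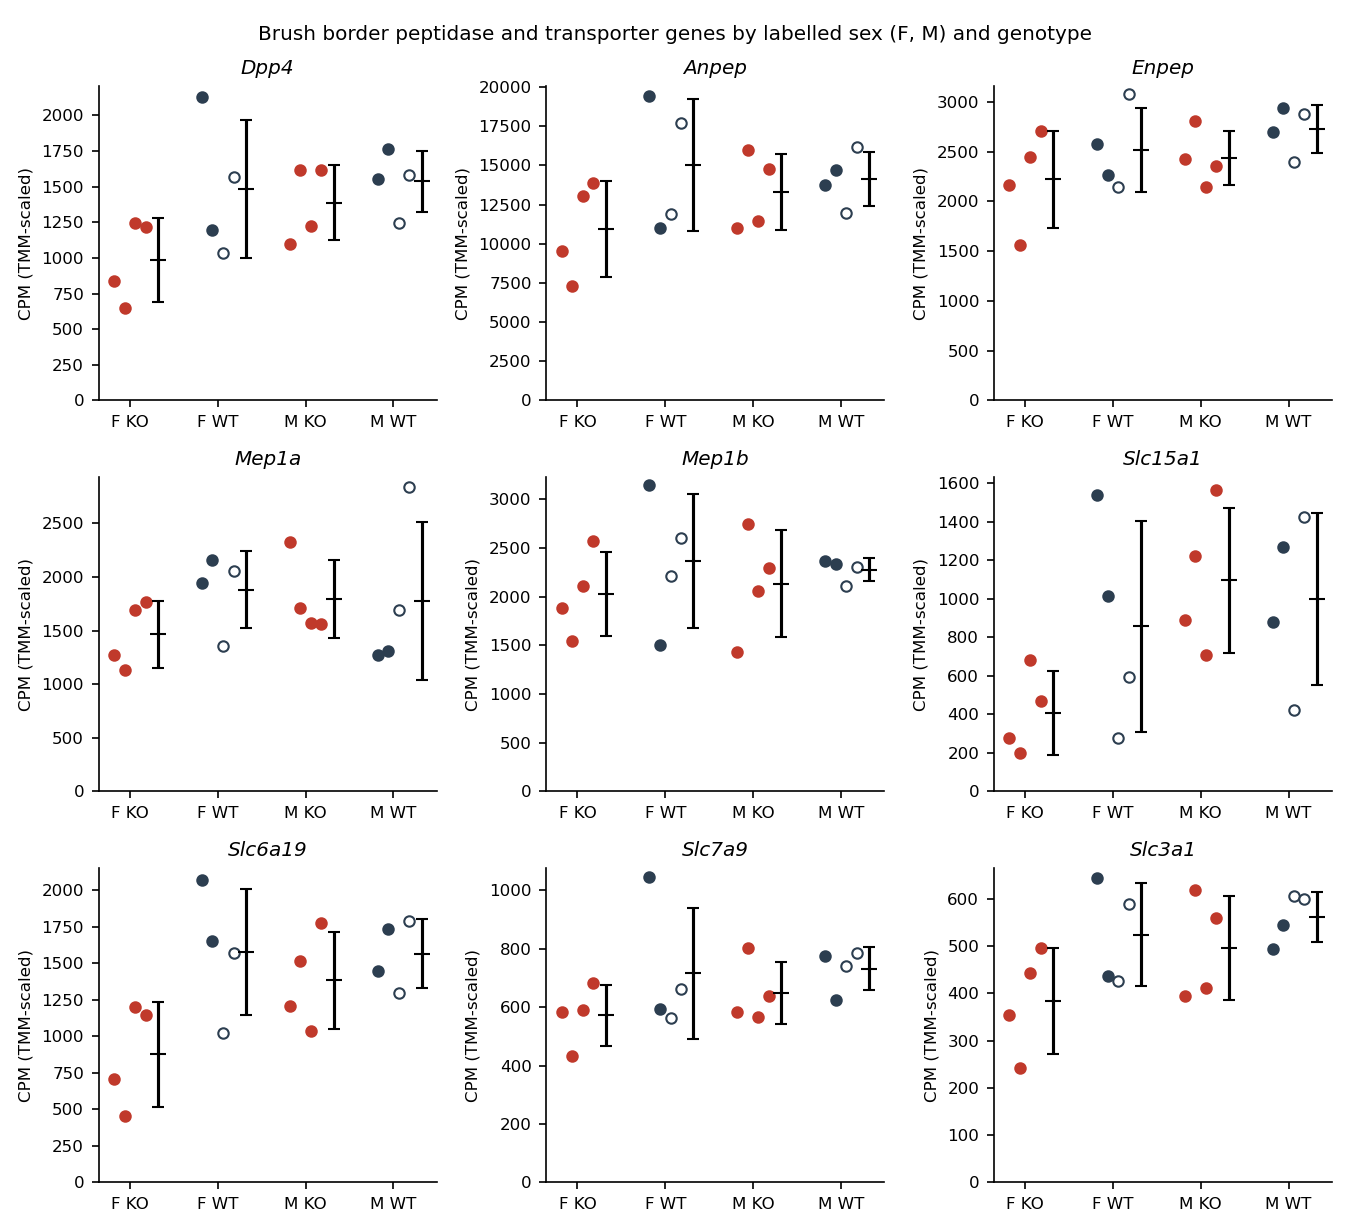
CPM of each gene by labelled sex (F, M) and genotype (red Slfn3KO, dark WT), with 1 point per library in the order of replicate numbers and the group mean ± SD beside it. Open points are the 4 WT libraries whose sex transcripts went against the label, and the 2 lowest Slc6a19 values, 454 and 704.5 CPM, belong to female Slfn3KO 2 and 1.

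In mice labelled female, the log2 fold changes lay below 0 for 9 of 9 genes, again not 9 separate observations. Their median was -0.45, against -0.01 over the genes tested. They were -1.07 (SE 0.55) for Slc15a1, -0.85 (SE 0.35) for Slc6a19, -0.59 (SE 0.30) for Dpp4, -0.46 (SE 0.31) for Anpep, -0.45 (SE 0.25) for Slc3a1, -0.36 (SE 0.23) for Mep1a, -0.33 (SE 0.24) for Slc7a9, -0.22 (SE 0.26) for Mep1b and -0.18 (SE 0.22) for Enpep. None passed, and the lowest edgeR adjusted p was 0.278, for Slc6a19, which alone had an unadjusted p under 0.05 (0.0387). No gene of the 14064 tested was called (0%), 2410 had an unadjusted p under 0.05, and DESeq2 called 506 genes, again none of the 9. The share of all genes below 0 was 51.1% and that with an unadjusted p under 0.05 on the lower side was 8.56%. Without female WT 3 and 4 the log2 fold changes were -1.65 for Slc15a1, -1.09 for Slc6a19 and -0.76 for Dpp4, and between -0.13 (Enpep) and -0.53 (Slc7a9) for the others.

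In mice labelled male, 7 of 9 genes lay below 0, against 50.4% of the 14124 genes tested. The extremes were -0.18 (SE 0.17) for Slc3a1 and 0.14 (SE 0.37) for Slc15a1, and every edgeR adjusted p was 0.925 or higher. No gene was called by edgeR (0%), 542 genes had an unadjusted p under 0.05 and DESeq2 called 14. On the lower side 1.98% of genes had an unadjusted p under 0.05, and none of the 9. The direction was not stable for 3 genes, since the log2 fold change of Mep1a, 0.02, was -0.13 without male Slfn3KO 1, -0.11 without male WT 1 and -0.09 without male WT 2. Without male WT 3 and 4 it was 0.49, and those of the other 8 genes ran from -0.25 for Dpp4 to 0.03 for Slc15a1. The value of Slc15a1 was -0.07 without male Slfn3KO 4 and -0.11 without male WT 3, and that of Mep1b, -0.09, was 0.05 without male Slfn3KO 1.

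**Figure D3:**
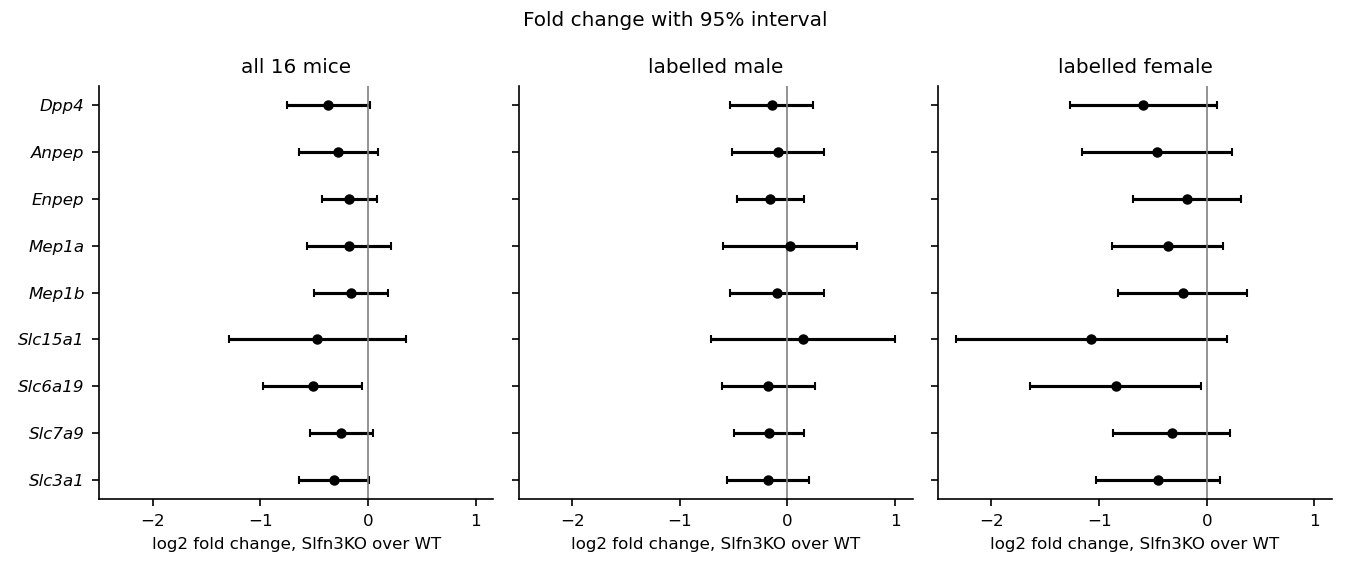
Log2 fold change (Slfn3KO over WT) of the 9 genes with the 95% interval from edgeR, in all 16 mice with sex as a covariate and in each labelled sex alone. Points lie below 0 for all 9 genes in females and between -0.18 and 0.14 in males, and only the intervals of Slc6a19 over all mice and in females stay below 0, before adjustment.

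The difference between the sexes was tested as the interaction of sex and genotype (female minus male). It ran from -1.21 (SE 0.72) for Slc15a1 and -0.67 (SE 0.41) for Slc6a19 to -0.02 (SE 0.25) for Enpep. The median of the 9 was -0.37, against 0.0063 over all genes tested, and these are again not 9 separate observations. The edgeR adjusted p was at least 0.494 for each, none of the 9 had an unadjusted p under 0.05 on the lower side where 5.26% of 14822 genes did, and no gene at all was called (0%). DESeq2 called 19 genes, and 1639 had an unadjusted p under 0.05 by edgeR. Hence the larger values in females were not shown to differ from those in males. The signs for Enpep, Mep1b and Slc7a9 turned positive when single mice were left out. Without the 4 WT libraries the interaction was -1.67 for Slc15a1, -0.97 for Mep1a, -0.88 for Slc6a19, -0.41 for Slc7a9 and 0.09 for Enpep, with an edgeR adjusted p of at least 0.107 for each of the 9.

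Other genes of peptide and amino acid handling were examined in the same fits, in lists chosen with earlier results of these data known. Of all genes tested, 50.7% lay below 0 over all mice and 51.1% in females. An unadjusted p under 0.05 on the lower side was found for 8.56% in females by edgeR. Of 10 other membrane peptidases, 7 were tested and 7 lay below 0 over all mice with a median log2 fold change of -0.30, from Mme (neprilysin), -0.65, to Cpm (carboxypeptidase M), -0.18. In females the 7 lay below 0 with a median of -0.56, and 5 had an unadjusted p under 0.05 on the lower side, while in males the median was 0.03. Tmprss15, the enteropeptidase of the duodenum, had 0 counts in 16 of 16 libraries, and 3 counts corresponded to between 0.0974 and 0.144 CPM. Folh1 and Naalad2 reached at most 0.0502 and 0.388 CPM. Of 6 cytosolic peptidases, 5 lay below 0 over all mice with a median of -0.20, from Pepd (prolidase), -0.29, to Npepps, 0.03, with Dpp3 at -0.01. None of these genes was called by edgeR, which called 0% of all genes tested.

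Of 7 other apical transporters and partners, 4 lay below 0 over all mice, with a median of -0.17, between -0.73 for Slc6a14 and 0.22 for Slc1a1, the glutamate transporter. Slc9a3, the sodium-proton exchanger that sustains the proton gradient used by Slc15a1, had -0.34 (SE 0.54) at 5.8 to 68.3 CPM. Of 8 basolateral transporters, 6 lay below 0 with a median of -0.25, from -0.56 (SE 0.58) for Slc7a8 to 0.21 for Slc7a5. Slc3a2, the heavy chain of the basolateral exchangers, had -0.27 (SE 0.25) and its light chain Slc7a7 -0.23 (SE 0.16). In females the basolateral list had a median of -0.61, with Slc7a8 at -1.48 and Slc3a2 at -0.79. Of its 8 genes, 2 had an unadjusted p under 0.05 on the lower side, which 8.56% of all genes tested had. None of the transporters was called by edgeR in any of the 4 comparisons, in each of which it called 0% of all genes tested.

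Markers of other cell types and of the villus were also compared between the genotypes. None was called by edgeR in either sex, where it called 0% of all genes tested. Of 8 villus enterocyte markers (Vil1, Alpi, Sis, Krt20, Fabp2, Apoa1, Apoa4, Cdh17), 8 lay below 0 in females with a median log2 fold change of -0.78, and their summed level was 10081 to 26598 CPM in female Slfn3KO and 16597 to 60121 CPM in female WT. Of the 8, 2 had an unadjusted p under 0.05 on the lower side in females by edgeR, against 8.56% of all genes tested. In males 3 of the 8 lay below 0, with a median of 0.03. Vil1, which encodes villin of the microvillus core, was lowest in female Slfn3KO 2 and 1, at 2205 and 2606 CPM, and highest in female WT 1, at 6744 CPM. The 6 crypt and proliferation markers lay above 0 in females with a median of 0.85 and 5 at an unadjusted p under 0.05 on the higher side, which 8.58% of all genes tested had. They summed to 427 to 581 CPM in female Slfn3KO against 110 to 408 CPM in female WT. The 4 Paneth cell markers lay above 0 in females, with a median of 1.64 and 3804 to 7798 CPM against 709 to 3313 CPM. In males the crypt markers had 3 above and 3 below 0 with a median of 0.09, and the Paneth cell markers a median of 0.19. Epithelial markers as a whole had a median of -0.08 in females. Without the 4 WT libraries, the WT median of the summed level over both sexes was 2953 instead of 1712 CPM for Paneth cell markers. It was 377.2 instead of 304.9 CPM for crypt markers and 39156 instead of 35113 CPM for villus markers. The Slfn3KO medians were, in this order, 3928, 454.7 and 27653 CPM. The part of these differences in the values of the 9 genes was not tested, and in bulk mucosa fewer cells of a type and less RNA per cell cannot be told apart.

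Genes that mark the proximal small intestine differed between libraries within groups. Lct (lactase) was at 1.89 CPM or less in female Slfn3KO 1, 2 and 4, female WT 3 and male WT 3, at 16.3 CPM in female WT 4, and between 102.7 and 1376 CPM in the other 10. The 5 libraries with the lowest Lct were also the 5 with the lowest Slc15a1, at 200.4 to 468 CPM. Slc40a1, the iron exporter and another gene of the same list of 6, went the other way, with 89.6 to 133.6 CPM in female Slfn3KO 1, 2 and 4 and 2.92 to 84 CPM in the other 13. The ileal gene Fabp6 was highest in female WT 2, male WT 4 and male Slfn3KO 1, which were also highest for Mep1a, but over the 16 libraries Mep1a had r = 0.37 with Fabp6 and r = 0.42 with Lct. The 6 proximal markers had a median log2 fold change of -1.14 in females, where Slc40a1 (1.64) and Cybrd1 (0.83) lay above 0, and 0.22 in males, and the 6 ileal markers -0.15 and -0.31. The 8 B cell and follicle markers had medians of -3.63 in females and -2.49 in males, with sums of 1.91 to 109.5 CPM in Slfn3KO and 4.07 to 763 CPM in WT. Without the 4 WT libraries the WT median of these sums was 10.65 instead of 137.3 CPM, against 18.29 CPM in Slfn3KO. Medians of the remaining lists in females lay between -0.44 (T cell) and 1.56 (smooth muscle), with goblet, enteroendocrine, tuft, plasma cell, macrophage and fibroblast markers in between. Whether the position of the sampled segment had a part in the values of Slc15a1 or Mep1a was not tested.

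**Figure D4:**
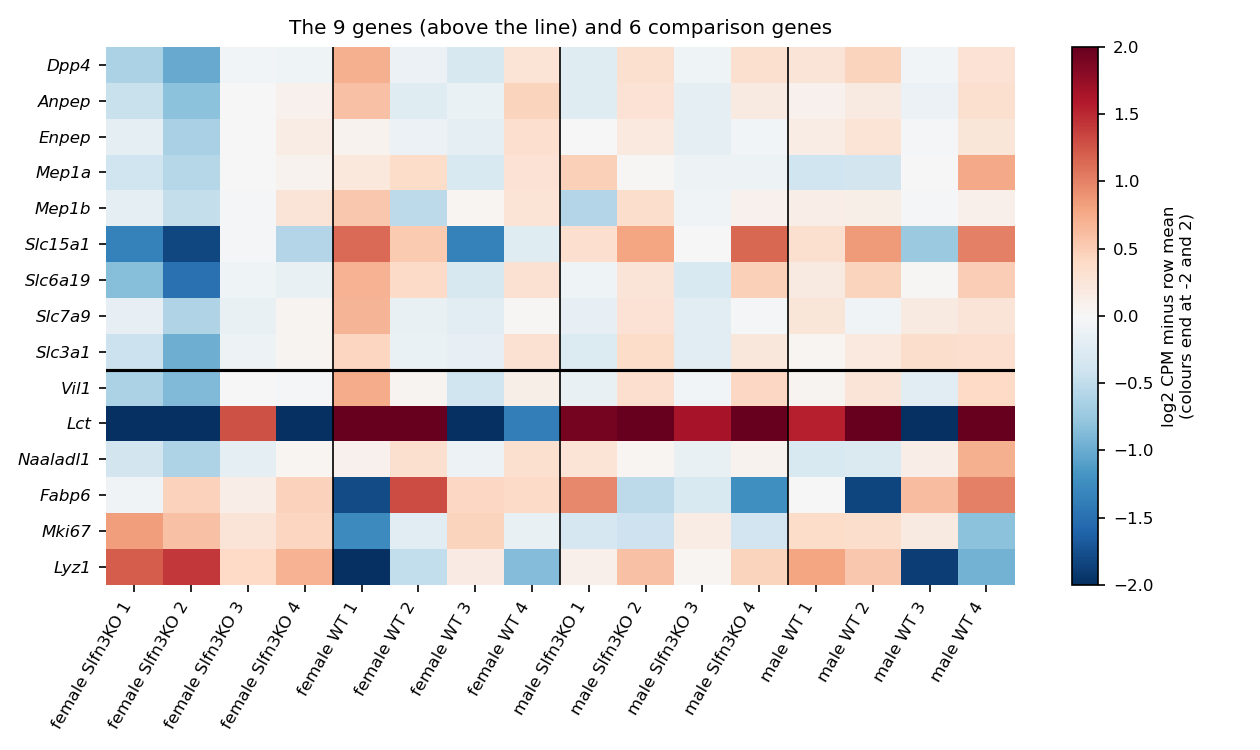
Log2 CPM of each gene minus its mean over the 16 libraries (colours end at -2 and 2), for the 9 genes above the line and 6 others, picked after their values were seen, below it. Female Slfn3KO 1 and 2 are low in nearly all 9 genes and in Vil1 and high in Mki67 and Lyz1, and Slc15a1 is lowest where Lct is lowest, while the 3 highest libraries are the same for Mep1a and Fabp6.

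Over the 16 libraries the 9 genes tended to move together. Pearson's r of log2 CPM was above 0 for 36 of 36 pairs, with a median of 0.75, from 0.94 for Dpp4 and Anpep to 0.04 for Mep1a and Mep1b. These are descriptions, since the pairs share libraries and groups. Mep1a was the least like the rest, with a mean r of 0.42 with the other 8, and Anpep the most, with 0.81. Among 14812 other tested genes with a symbol of their own, the highest mean r with the 9 belonged to Picalm, Ezr (ezrin, which ties the microvillus membrane to actin), Pik3c3, Pcsk5 and Tollip, each at 0.83. The lowest belonged to Nom1 at -0.81, Slc9a3r2 at -0.80 and Nfx1 at -0.80.

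Known partners were compared in 3 pairs, with permutation tests on log2 CPM adjusted over the 3. Slc7a9 and Slc3a1, chains of 1 exchanger, had r = 0.85 and rho = 0.90 over 16 libraries, each with an adjusted permutation p of 6e-05 from the smallest raw p that 100000 resamples can give. Without the 2 libraries farthest from the median of Slc7a9, r was 0.78, and it was 0.74 within WT and 0.94 within Slfn3KO. By r this pair ranked 10 among the 36 pairs of the 9 genes, and Slc3a1 had higher r with Anpep (0.92), Dpp4 (0.91) and Slc6a19 (0.90). The light chain stood at 0.98 to 1.56 times the heavy chain in RPKM (median 1.17).

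Slc15a1 and Slc9a3 had r = 0.65 and rho = 0.60, with adjusted permutation p of 0.0112 and 0.0238, r = 0.61 without the 2 farthest, and 0.62 within WT and 0.68 within Slfn3KO. The meprin chains Mep1a and Mep1b were not shown to be related, with r = 0.04 and rho = 0.11 (adjusted permutation p = 0.884 and 0.687) and r = -0.24 without the 2 farthest libraries. The alpha chain stood at 0.36 to 0.53 times the beta chain in RPKM in 13 libraries and at 0.82, 0.95 and 1.08 times in male WT 4, female WT 2 and male Slfn3KO 1. Leaving out the 4 WT libraries gave r of 0.86 for Slc7a9 and Slc3a1, 0.63 for Slc15a1 and Slc9a3, and -0.07 for the meprins.

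**Figure D5:**
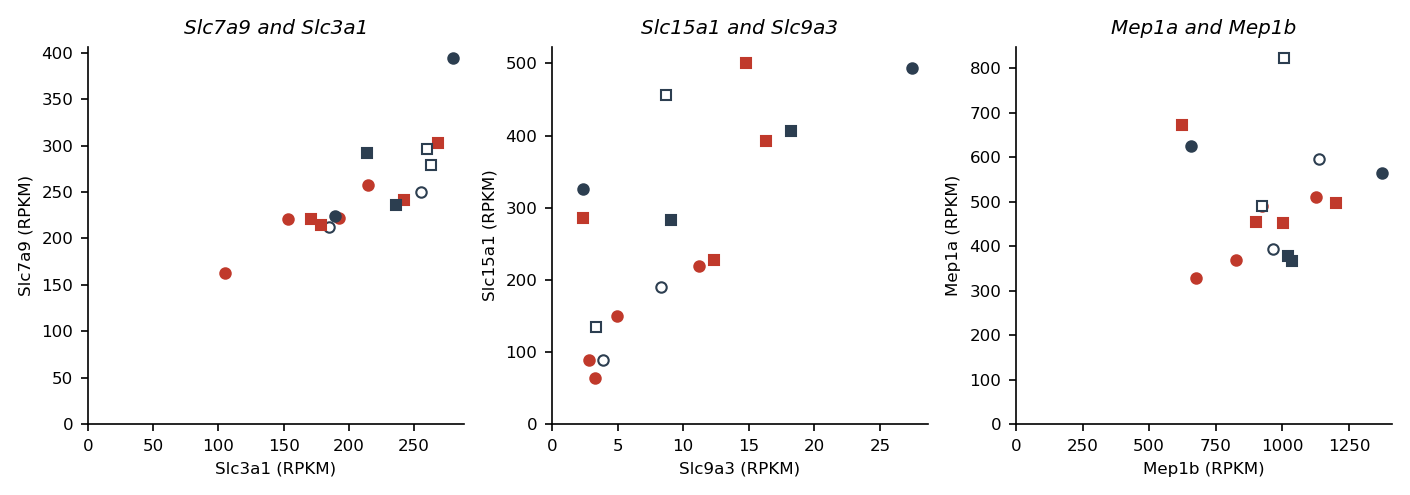
RPKM of 3 partner pairs, with 1 point per library (red Slfn3KO, dark WT, circles labelled female, squares labelled male, open points the 4 WT libraries with contrary sex transcripts). Slc7a9 follows Slc3a1 (r = 0.85 in log2 CPM) and Slc15a1 rises with Slc9a3 (r = 0.65), whereas Mep1a and Mep1b do not vary together (r = 0.04).

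The genes lie apart in the genome. By the coordinates of the count table (mm10), Anpep lies at chr7:79821803-79848210 on the minus strand and Slc7a9 at chr7:35449037-35466036 on the plus strand, Mep1a at chr17:43474324-43502812 on the minus strand and Slc3a1 at chr17:85028347-85064243 on the plus strand. Dpp4 lies at chr2:62330073-62412231, Enpep at chr3:129269175-129332720, Slc6a19 at chr13:73679745-73704865 and Slc15a1 at chr14:121459621-121505254, all on the minus strand. Stretches of 50 bases shared with transcripts of other genes made up 1.3% of the Mep1b transcripts, 0.165% of Slc15a1 and 0% of the other 7. A predicted gene, Gm44974, overlaps Anpep on the same strand in GENCODE M21.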

How the data were processed

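RNA from intestinal mucosa of 16 mice was sequenced by the authors as single stranded-kit reads, trimmed with cutadapt and aligned with STAR to mm10. The deposited values are raw counts per gene, not normalized, and the deposited exon length gave RPKM. The header of the table names featureCounts (1.4.6 in the submitters' processing notes) with reverse-stranded counting, whereas the paper names HTSeq. Symbols came from GENCODE M21 for 45143 of 46078 identifiers.

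Fold changes were fitted on the whole table with edgeR 4.0.16 in R 4.3.3 (TMM factors, filterByExpr by group, robust quasi-likelihood F test, Benjamini-Hochberg adjustment). A gene was called at an adjusted p under 0.05 and at least 1.5-fold. Each standard error was derived as |log2 fold change| over the square root of F. Log2 CPM used a prior count of 2. The pooled fit had sex as a covariate, the fits within a sex had none, and the interaction was female minus male. The fit was tested on simulated data. Correlations used 100000 resamples (scipy 1.17.1). Between 20823279 and 30813117 counts per library put a floor of 3 counts at 0.0974 to 0.144 CPM, which covers counting error only.

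Alternatives were RLE factors, DESeq2 1.42.0, a fit without a filter, a minimum of 10 counts in all mice, unadjusted p-values, no fold threshold, no covariate, no WT libraries 3 and 4, each mouse left out and the replicate number as a block. Same-numbered mice are different animals. Their deviations from the group means correlated at 0.14 to 0.52 in males, where every pair exceeded 0.1, and at -0.36 to 0.14 in females. Libraries are separate mice by the labels, with 1 per mouse. The 9 genes and all lists were chosen with earlier results of these data known. Named besides the 9 were known partners, the largest and smallest pooled change of each pathway list, the genes most and least like the 9, and Slfn3. Marker genes and members of lists named with their own values beyond these were picked after their values were seen. 1 gene of the lists, with the comparisons that used it, is not reported here.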

Additional observations from a re-analysis of the deposited data

How the results depend on the processing

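Of 657 recomputed log2 fold changes of the 9 genes, 643 kept their direction and their side of the threshold and 14 reversed. No setting with an adjusted p brought any of the 9 past the threshold, and the lowest adjusted p over these settings was 0.108. DESeq2 called 54 genes over all mice, 14 in males, 506 in females and 19 for the difference between the sexes, where edgeR called 0 in each. With an unadjusted p under 0.05 and a 1.5-fold change, edgeR's counts were in this order 984, 272, 1366 and 946. Without the WT libraries 3 and 4, which left 4 WT mice over both sexes, the difference between the sexes had 359 calls. The difference was then -0.97 instead of -0.37 for Mep1a, -0.41 instead of -0.15 for Slc7a9, -1.67 instead of -1.21 for Slc15a1 and 0.0876 instead of -0.02 for Enpep. The replicate block left the count of calls at 0 in each comparison and gave Slc6a19 a log2 fold change of -0.54 over all mice and -0.92 in females, and it changed no call. Leaving out 1 mouse at a time gave -0.13 to 0.33 for Mep1a, -0.24 to 0.0542 for Mep1b and -0.11 to 0.35 for Slc15a1 in males. Over all mice it gave -0.64 to -0.22 for Slc15a1 and in females -1.45 to -0.63, the latter without female WT 1. For the difference between the sexes it gave -0.13 to 0.11 for Enpep, -0.30 to 0.0407 for Mep1b and -0.25 to 0.0832 for Slc7a9. The cause of these reversals was not tested. With 4 mice a group, the 95% interval for Slc15a1 in females ran from -2.33 to 0.19.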

Other observations

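The ratios of the 3 partner pairs were compared between genotypes after the values were seen, and none of the 3 differences passed an exact two-sided permutation test over 8 Slfn3KO and 8 WT mice. The log2 ratio of Slc7a9 to Slc3a1 differed by 0.10 (Slfn3KO minus WT, exact permutation p = 0.326), that of Mep1a to Mep1b by 0.02 (exact permutation p = 0.949) and that of Slc15a1 to Slc9a3 by -0.19 (exact permutation p = 0.672). The adjusted p over the 3 was 0.949 for each.

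Naaladl1, a membrane peptidase of the ileum, was the gene most like Mep1a over the 16 libraries (r = 0.94), and Fabp2, a fatty acid binding protein of the enterocyte, the gene most like Slc15a1 (r = 0.99). Both were chosen from all genes for that likeness, so no test is given. Slc6a14, an amino acid transporter, ranged from 0.127 to 156 CPM, with a log2 fold change of -3.61 in males and 1.91 in females, neither of which passed.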
